A study of Homo sapiens with 17 samples.

Results

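The mRNAs of 9 nonsense-mediated decay (NMD) factors were examined: UPF1, UPF2, UPF3A, UPF3B, SMG1, SMG5, SMG6, SMG8 and SMG9. They were taken by gene symbol from a table of 18869 genes. No measured value was used for this, but earlier results of these data were known when the members were chosen. All 9 reached an average TPM, a level scaled to transcript length and library total, of 5 or more in each of 2 immunoprecipitations (IPs). The established human embryonic kidney line HEK293T was used, carrying a construct integrated by lentivirus and switched on for 24 h with 50 ng/ml doxycycline. RPS2-STAMP cells expressed the C-to-U RNA-editing enzyme APOBEC1 fused to RPS2, a protein of the small ribosomal subunit, and Control-STAMP cells expressed APOBEC1 alone. After crosslinking in 0.1% formaldehyde, RNA was sequenced from the Input, from an IP of PABPN (the nuclear poly(A) binding protein) and from an IP of PABPC (the cytoplasmic one). RPS2-STAMP had 3 samples for each of these fractions, and Control-STAMP had 3 for the Input, 3 with PABPN and 2 with PABPC. The study describes the lysate as the cytoplasmic portion, a step that the sample labels do not state. All values below are pooled over samples, so that no SD, n or test accompanies a difference between fractions.

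NMD is the surveillance pathway that degrades mRNAs on which translation terminates early or in an unfavourable context. The RNA helicase UPF1 is recruited to terminating ribosomes, UPF2 and UPF3A or UPF3B link it to exon junction complexes, SMG1 phosphorylates it with SMG8 and SMG9 as subunits of the kinase complex, and SMG5 and SMG6 bind phosphorylated UPF1 and bring about decay. Long 3′ UTRs, upstream open reading frames and exon junctions downstream of a stop codon can make a transcript a substrate, and mRNAs of several NMD factors are themselves degraded by NMD, a feedback loop that keeps the pathway in balance.

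Because NMD acts at translation termination, the last 27 coding bases and the stop codon, in capitals, are shown for 4 of the mRNAs, read from their MANE Select transcripts in GENCODE release 44 (hg38). SMG5 has the highest abundance of the 9, SMG1 and SMG8 are the extremes in 3′ UTR length, and UPF1 has an exon junction after its stop codon.
SMG5 (chr1:156250587-156250616, minus strand): ttctacaagcagtggaaggaaattggtTGA
SMG1 (chr16:18809569-18809598, minus strand): ctgtatgaaggttggacagcctgggtgTGA
SMG8 (chr17:59214973-59215002, plus strand): cgtggggttcttaaggcagtaacacaaTAA
UPF1 (chr19:18866134-18866163, plus strand): ggcggggtgacggggctgtcccagtatTAA

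The 3′ UTR after the stop codon was 4709 nt long in SMG1, 3613 nt in SMG9 and 228 nt in SMG8, and the median over the 9 mRNAs was 1363 nt against 1349 nt for protein-coding genes (PCGs) that reached 5 TPM in each IP. A junction after the stop codon was annotated in 1 of the 9, UPF1, where it lies 3 nt downstream, and in 3.60% of these PCGs. Junctions at any distance from the stop codon were counted, and whether the one in UPF1 bears on NMD was not tested. At least 1 ATG lay in the 5′ UTR of 4 mRNAs (UPF2, SMG1, SMG5 and SMG9), and the share over these PCGs was 39.6%. The median coding length of the 9 was 3051 nt against 1323 nt for PCGs, with the longest, 10986 nt, in SMG1, and the median exon number was 19 against 9. UPF3A, UPF3B and SMG9, with coding lengths of 1431, 1452 and 1563 nt, were near the middle of PCGs.

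Editing was given as normalized EPKM, edits scaled to transcript length and number of mapped reads after subtraction of the control condition, which is read as a measure of ribosome contact. Of the 9 mRNAs, 6 had a higher EPKM with PABPC than with PABPN, namely UPF1, SMG1, SMG5, SMG6, SMG8 and SMG9. Over the 9607 PCGs that reached 5 TPM in each IP this held for 56.4%. The remaining 3, UPF2, UPF3A and UPF3B, had a higher EPKM with PABPN, as did 37.4% of PCGs. EPKM as described is not divided by the abundance of the mRNA in the fraction, and TPM was higher with PABPN for all 9 mRNAs. For UPF3A TPM was 17.6 with PABPN and 6.61 with PABPC, and for UPF3B 17.3 and 11.4. The part of abundance in these EPKM comparisons was not tested. The median EPKM over the 9 mRNAs was 0.0623 with PABPC, 0.0256 with PABPN and 0.0122 in the Input, and the corresponding medians of PCGs were 0.0501, 0.0334 and 0.0273. On the log2(EPKM + 0.01) scale, the median ratio of PABPC IP to PABPN IP was 0.69 over the 9 mRNAs and 0.32 over PCGs. With a pseudocount of 0.1 these medians were 0.34 and 0.12.

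**Figure D1:**
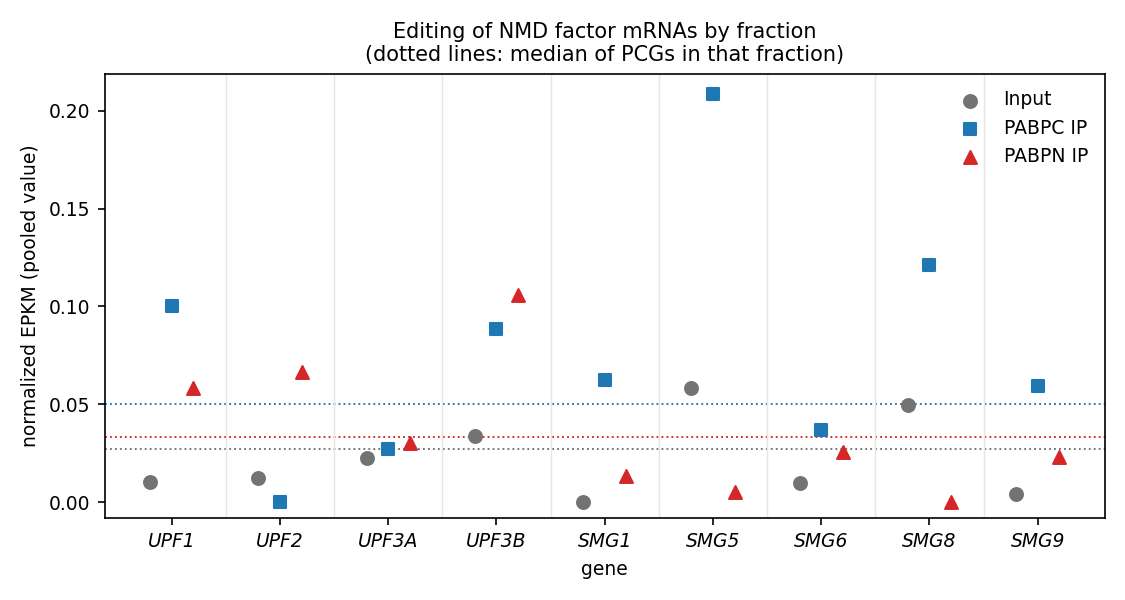
Normalized EPKM (vertical axis, 1 pooled value per point) of the 9 mRNAs in the Input (grey circles), PABPC IP (blue squares) and PABPN IP (red triangles), with dotted lines at the PCG median of each fraction. SMG5 in the PABPC IP, at 0.209, is the highest point, and SMG1 in the Input, UPF2 in the PABPC IP and SMG8 in the PABPN IP are listed at 0.

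UPF1 (ENSG00000005007, chromosome 19 from 18831959 to 18868230), the central helicase, had EPKM values of 0.0102 in the Input, 0.100 with PABPC and 0.0584 with PABPN. Both IPs were thus above the Input, and the PABPC IP value was 1.71 times the PABPN IP value. In the PABPC IP it ranked above 75.3% of PCGs, and in the Input above 32.6%.

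UPF2 (ENSG00000151461, chromosome 10 from 11920022 to 12043170), the adaptor between UPF1 and the UPF3 proteins, had EPKM values of 0.0122 in the Input and 0.0666 with PABPN and was listed at 0 with PABPC. It was the only one of the 9 at 0 with PABPC, where 17.4% of PCGs were at 0. Its TPM there was 7.73, above that of 8.92% of PCGs, and the number of reads behind it is unknown. The paralogues UPF3A (ENSG00000169062, chromosome 13) and UPF3B (ENSG00000125351, chromosome X) bind UPF2 and the exon junction complex, with UPF3B the more active of the pair in NMD. UPF3A had similar EPKM values of 0.0226 in the Input, 0.0270 with PABPC and 0.0301 with PABPN. UPF3B had values of 0.0337, 0.0884 and 0.106 in the same order, the highest PABPN IP value of the 9 mRNAs. The excess with PABPN was 1.12-fold for UPF3A and 1.20-fold for UPF3B, so that UPF2 was the one mRNA at least 2-fold higher with PABPN on the log2(EPKM + 0.01) scale, a difference found in 21.1% of PCGs.

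In the kinase complex, SMG1 (ENSG00000157106, chromosome 16 from 18804860 to 18926408) was listed at 0 in the Input and had an EPKM of 0.0623 with PABPC and 0.0132 with PABPN. SMG9 (ENSG00000105771, chromosome 19 from 43727983 to 43754962) had values of 0.00440, 0.0596 and 0.0229 for the Input, PABPC IP and PABPN IP. SMG8 (ENSG00000167447, chromosome 17 from 59209400 to 59215239) had 0.0497 in the Input and 0.121 with PABPC and was listed at 0 with PABPN, as were 27.1% of PCGs. The value with PABPC was the highest for each of the 3, as it was for 42.6% of PCGs. For SMG8 the gene model matters, because 99.8% of its length lies inside an annotated readthrough gene on the same strand (ENSG00000265303), which has its own EPKM of 0.454 in the Input, 0.231 with PABPC and 0.609 with PABPN. How edits in the shared sequence were assigned, and their part in the SMG8 EPKM, was not tested. This concerns EPKM and not TPM, for which readthrough transcripts were dropped from the annotation before reads were counted.

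Of the factors that bind phosphorylated UPF1, SMG5 (ENSG00000198952, chromosome 1 from 156249224 to 156282825) had EPKM values of 0.0585 in the Input, 0.209 with PABPC and 0.00520 with PABPN. The log2(EPKM + 0.01) ratio of PABPC IP to PABPN IP was 3.85, with a PABPN IP value close to 0, and the mRNA ranked above 95.1% of PCGs with PABPC and above 30.7% with PABPN although its TPM was among the highest in both. SMG6 (ENSG00000070366, chromosome 17 from 2059839 to 2303785), the endonuclease of the pathway, had 0.00956 in the Input, 0.0369 with PABPC and 0.0256 with PABPN. Both were thus edited most with PABPC, and both were below the PCG median of 0.0334 with PABPN.

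SMG1, SMG5, SMG8 and SMG9 were at least 2-fold higher with PABPC than with PABPN on the log2(EPKM + 0.01) scale, which was the case for 36.3% of PCGs. Relative to the Input, EPKM was higher with PABPC for 8 of the 9 mRNAs (57.3% of PCGs), UPF2 being the exception. It was higher with PABPN than in the Input for 7 of the 9 (45.2% of PCGs), the exceptions being SMG5 and SMG8. For 6 mRNAs the value with PABPC was the highest of the 3 (42.6% of PCGs), and 6 mRNAs were above 0 in every fraction (50.5% of PCGs). The 2 comparisons with the Input share the same Input values. Without a spread between replicates, whether neighbours in these orders differ could not be tested.

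SMG5 was highest of the 9 by both abundance and editing in the Input and with PABPC, whereas with PABPN it was highest by abundance and had the lowest EPKM above 0. In every fraction SMG5 had the highest TPM of the 9 mRNAs, with 110.9 in the Input, 265 with PABPC and 313 with PABPN, where it ranked above 97.4% of PCGs. The next highest was UPF1 in the Input (27.6 TPM) and with PABPC (26.6 TPM), and SMG1 with PABPN (75.2 TPM). UPF3A was lowest in the Input (3.64 TPM) and with PABPC (6.61 TPM), whereas UPF3B (17.3 TPM) and UPF3A (17.6 TPM) were lowest with PABPN. The median over the 9 mRNAs was 7.77 TPM in the Input, 11.4 with PABPC and 25.7 with PABPN, below the PCG medians of 15.8, 28.9 and 38.4. In bulk RNA, fewer cells with a transcript and less of it per cell cannot be told apart.

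**Figure D2:**
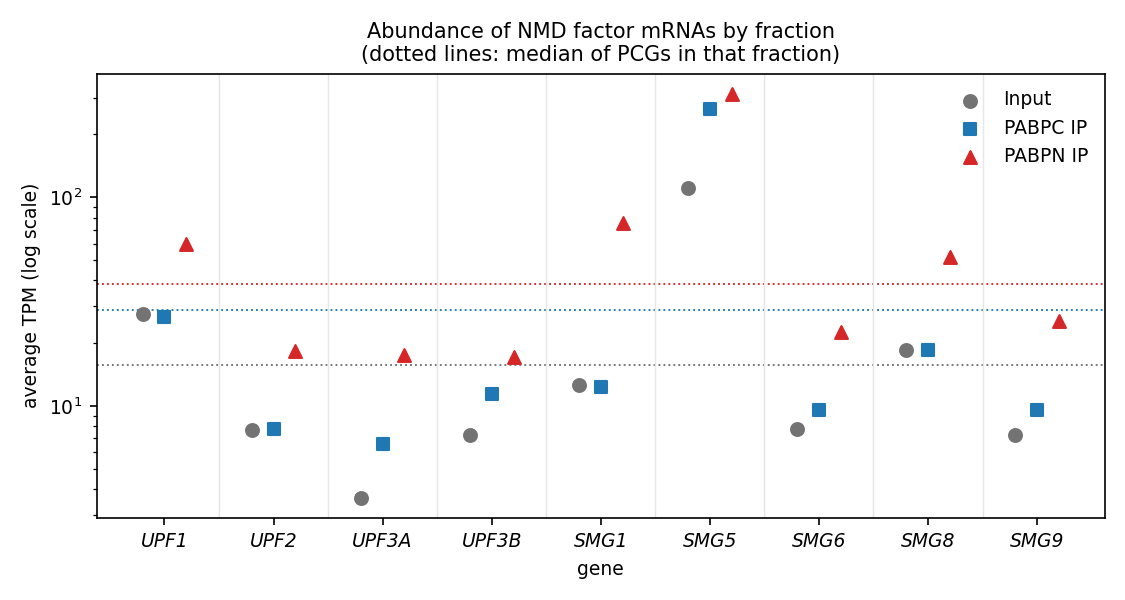
Average TPM (vertical axis, log scale, 1 pooled value per point) of the 9 mRNAs in the Input (grey circles), PABPC IP (blue squares) and PABPN IP (red triangles), with dotted lines at the PCG medians. For each mRNA the PABPN IP point lies above the PABPC IP point, by the least for SMG5 (313 against 265) and by the most for SMG1 (75.2 against 12.3).

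TPM was higher with PABPN than with PABPC for all 9 mRNAs and for 57.6% of PCGs. UPF1 had 59.6 TPM with PABPN and 26.6 with PABPC, a ratio of 2.24. The ratio was 2.38 for both UPF2 (18.4 and 7.73 TPM) and SMG6 (22.7 and 9.54 TPM), 2.66 for UPF3A, 2.70 for SMG9 (25.7 and 9.52 TPM) and 2.80 for SMG8 (51.8 and 18.5 TPM). UPF3B (17.3 and 11.4 TPM) and SMG5 had the smallest ratios, 1.51 and 1.18, and SMG1 (75.2 and 12.3 TPM) the largest, 6.13. As a reference, the log2 ratio of PABPC IP to PABPN IP was centred by subtracting its median over PCGs, -0.19. All 9 mRNAs lay below this median, at centred log2 ratios from -2.42 for SMG1 to -0.049 for SMG5, with a median of -1.06, but SMG5 lay above it, at 0.086, when PCGs with a TPM of at least 1 set the median. A centred ratio of at most -0.5 was found for 7 of the 9, all but UPF3B and SMG5, and for 31.5% of PCGs. None of the 9 had a centred ratio of at least 0.5, which 30.4% of PCGs had. These are single ratios of pooled values, with no test. TPM here sums exonic and intronic reads, and the study reported relatively more intron reads with PABPN than with PABPC in total-cell IPs. The part of intronic reads in these ratios was not tested.

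Each IP was also set against the Input. The median log2 ratio to the Input over PCGs, 0.99 for the PABPC IP and 1.14 for the PABPN IP, was subtracted here too. For UPF1, UPF2, SMG1 and SMG8 the TPM with PABPC was close to that in the Input (ratios of 0.966, 1.00, 0.978 and 1.00), whereas PCGs were typically higher in the IP, and the centred log2 ratios were -1.04, -0.98, -1.02 and -0.99. With SMG6 (-0.69) and SMG9 (-0.60), 6 of the 9 mRNAs were at or below -0.5 for the PABPC IP, as were 18.1% of PCGs. In the PABPN IP, 3 of the 9 were at or above 0.5, at 1.45 for SMG1, 1.13 for UPF3A and 0.68 for SMG9, as were 24.5% of PCGs. UPF1, UPF2 and UPF3B were near the PCG median there, at -0.026, 0.12 and 0.11. SMG5 was above the median in both IPs, at 0.27 with PABPC and 0.36 with PABPN. The 2 IPs are divided by the same Input values.

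**Figure D3:**
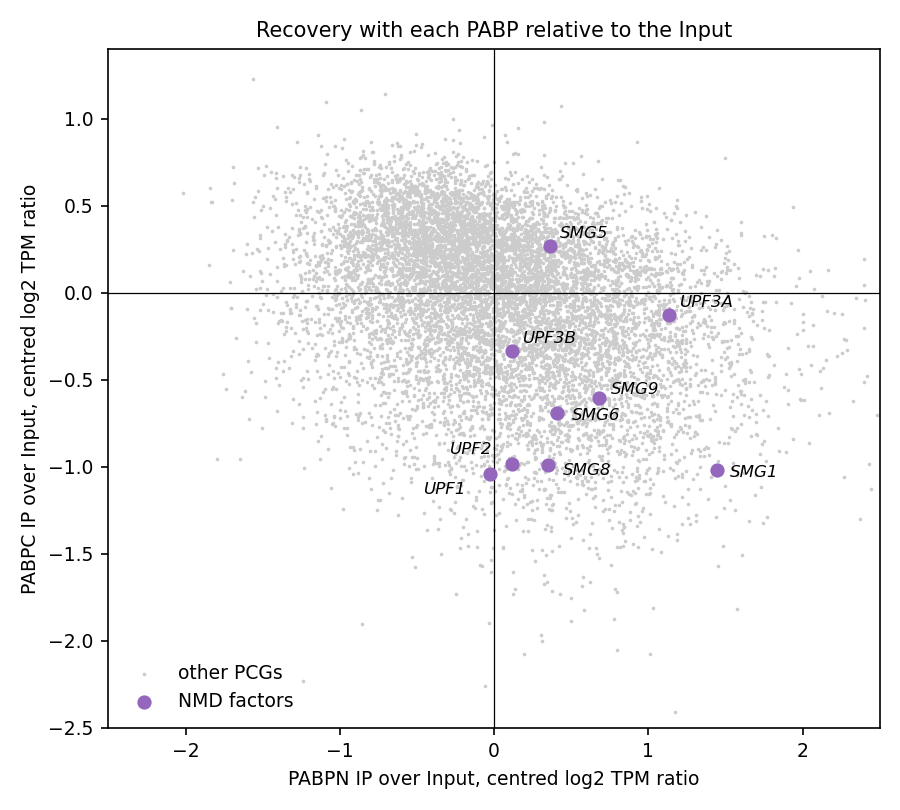
Centred log2 TPM ratio to the Input for the PABPN IP (horizontal axis) and the PABPC IP (vertical axis), with PCGs in grey (53 lie outside the axes) and the 9 mRNAs in purple. SMG5 is the one mRNA above 0 on the vertical axis, UPF1, UPF2, SMG8 and SMG1 lie near -1 on it, and SMG1 (1.45) and UPF3A (1.13) lie farthest to the right.

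SMG1 has a family of copied pseudogenes on the same chromosome, and its reads may be split with them. All 7 that were read from the table had a higher TPM with PABPN than with PABPC, as did 57.6% of PCGs. Their summed TPM was 22.7 in the Input, 23.0 with PABPC and 166 with PABPN, and the most abundant with PABPN was SMG1P3 at 57.2 TPM. Their centred log2 ratios of PABPC IP to PABPN IP ran from -3.64 for SMG1P3 to -0.89 for SMG1P6, and 1 of the 7, SMG1P6, reached 5 TPM in both IPs. Their part in the SMG1 values was not tested.

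Coding length moved with the partition across PCGs. The median centred log2 ratio of PABPC IP to PABPN IP fell from 0.89 in the decile of PCGs with the shortest coding sequence to -1.23 in the decile with the longest. In the longest decile, UPF1 (-0.97), UPF2 (-1.05) and SMG6 (-1.06) were above that median and SMG1 (-2.42) was below it. In the next decile, with a median of -0.64, SMG5 (-0.049) was above and SMG8 (-1.29) below. The mRNAs with the shorter coding sequences, UPF3A (1431 nt), UPF3B (1452 nt) and SMG9 (1563 nt), were at -1.22, -0.40 and -1.24, all below the -0.054 of their decile. Measured against the decile in place of all PCGs, 5 of the 9 mRNAs were thus below the median and 4 above it. For the ratio of PABPC IP to Input 7 were below the median of their decile and 2 above, and for PABPN IP to Input 3 were below and 6 above. The decile medians of EPKM went from 0.0720 for the shortest to 0.0193 for the longest coding sequences in the Input, from 0.0703 to 0.0450 with PABPC and from 0.0462 to 0.0402 with PABPN, where they were lower in between (0.0273 in decile 3 and 0.0280 in decile 6, which holds UPF3A, UPF3B and SMG9). Between the end deciles the Input thus fell the most, and the part of this in the EPKM comparisons of the 9 mRNAs with the Input was not tested.

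**Figure D4:**
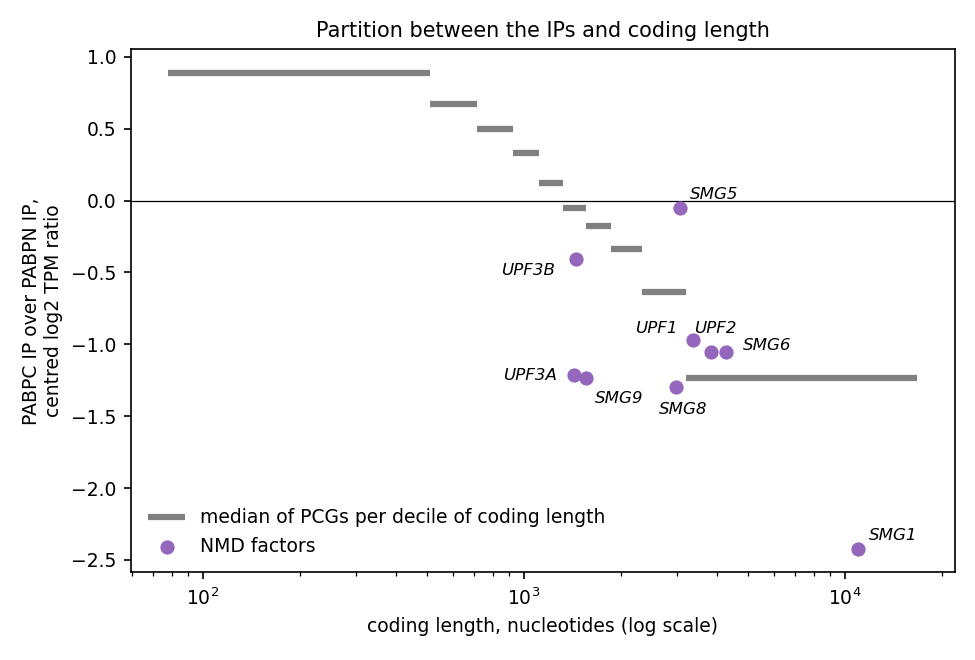
Centred log2 TPM ratio of PABPC IP to PABPN IP (vertical axis) against coding length in nucleotides (horizontal axis, log scale) for the 9 mRNAs (purple), with grey bars at the median of each decile of PCGs over its range of length. UPF3A, SMG9, SMG8 and SMG1 lie well below the bar of their length, and SMG5 lies above it.

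The rest of the NMD machinery was read from 4 lists of 25 genes in all, of which 24 reached 5 TPM in each IP. Of these 24, 7 had a centred log2 ratio of PABPC IP to PABPN IP of at most -0.5 and 9 of at least 0.5 (31.5% and 30.4% of PCGs), and the median was 0.15. EPKM was higher with PABPC for 14 and higher with PABPN for 7 (56.4% and 37.4% of PCGs). These counts were near the shares over PCGs. The exon junction complex, which marks spliced junctions and is read by UPF3B, lay on the other side of the PCG median from the 9 factors, with a median ratio of 0.89 over 7 genes. It ranged from -0.084 for MAGOHB to 1.48 for MAGOH, with 4 genes at or above 0.5 and none at or below -0.5. Of the 7 coding sequences, 5 fall in the 3 shortest deciles of PCGs, whose median ratios were 0.89, 0.67 and 0.50, whereas EIF4A3 (1236 nt) and CASC3 (2112 nt) are longer, and the part of coding length in this difference was not tested. None of these 7 mRNAs had a higher EPKM with PABPC than in the Input (57.3% of PCGs) or with PABPN than in the Input (45.2% of PCGs), and their median EPKM was 0.137 in the Input, 0.00406 with PABPC and 0.0220 with PABPN. Among the deciles of PCGs, the one with the shortest coding sequences had the highest median Input EPKM, 0.0720. Its median with PABPC was close to this, at 0.0703, and that with PABPN was 0.0462. The part of coding length in the EPKM of these 7 mRNAs was not tested.

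Among the translation termination factors, ETF1, the release factor that recognises stop codons, had a centred log2 TPM ratio of PABPC IP to PABPN IP of 0.69 and an EPKM of 0.0708 with PABPC against 0.127 with PABPN. GSPT1, its GTPase partner, had a ratio of -0.37 and an EPKM of 0.266 with PABPC against 0.0512 with PABPN. The 9 genes of decay and decapping had a median ratio of -0.13, and 4 were at or below -0.5 (31.5% of PCGs). The lowest was XRN1 (-1.59), the exonuclease that degrades decapped mRNA from its 5′ end, and the highest was PNRC2 (0.60), an adaptor to the decapping complex. The 6 auxiliary factors were divided, with 3 at or below -0.5 and 3 at or above 0.5 (31.5% and 30.4% of PCGs), from NBAS (-2.03), which has the longest coding sequence of this list with 7116 nt, to the ATPase RUVBL2 (1.09).

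The proteins known to protect transcripts from NMD were all above the PCG median, at 0.42 for PABPC1, 0.56 for PTBP1 and 0.77 for HNRNPL. Of 11 transcripts known as NMD substrates, 8 had a higher EPKM with PABPN than with PABPC (37.4% of PCGs) and 3 a higher one with PABPC (56.4% of PCGs). Of these 11, 3 are non-coding RNAs (GAS5, ZFAS1 and SNHG12), all higher with PABPN, and the 8 protein-coding ones were divided 5 to 3. Over all 11, the median EPKM was 0.0394 with PABPC and 0.0383 with PABPN, so that the medians were close although most single genes were higher with PABPN. The centred log2 TPM ratios of the 11 ran from -3.0 for SNHG12, a snoRNA host gene, to 0.67 for ATF4, the stress-response transcription factor with upstream open reading frames, with 4 at or below -0.5 and 3 at or above 0.5, close to the 31.5% and 30.4% of PCGs. The EPKM of ATF4 was 0.203 in the Input and 0.109 with PABPC, and it was listed at 0 with PABPN. SNHG12 had 0.00907 in the Input, 0.00245 with PABPC and 0.135 with PABPN.

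**Figure D5:**
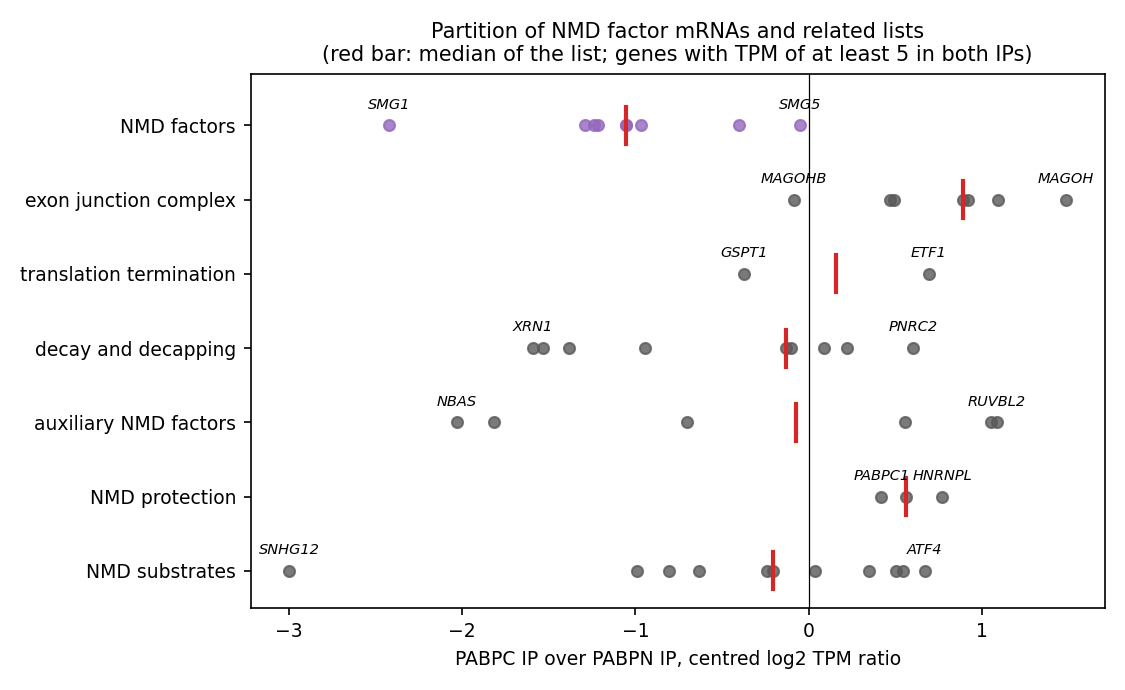
Centred log2 TPM ratio of PABPC IP to PABPN IP (horizontal axis) for each gene that reached 5 TPM in each IP, by list (vertical axis), with a red bar at the list median and the lowest and highest gene named. The 9 NMD factors have a median of -1.06 and the exon junction complex one of 0.89.

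The labels of the fractions were compared with transcripts of known location. The nuclear non-coding RNA MALAT1 had 208 TPM with PABPN and 10.3 with PABPC, and NEAT1 had 55.8 and 3.25. In the Input, MALAT1 had 55.0 TPM and NEAT1 4.27. The study describes the lysate as cytoplasmic, and how much nuclear RNA it held, and its part in the PABPN IP values, was not tested. The ribosomal protein mRNA RPL7A had 1439 TPM with PABPN and 5055 with PABPC. Of the markers chosen for the cell line, CKB and VIM had 971 and 184 TPM in the Input and PAX2 had 0.797. PAX2 had 1.28 TPM with PABPC and 2.41 with PABPN, under the minimum of 5 set for each IP. Markers of leukocytes, hepatocytes and erythroid cells were not analysed here.

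The PCGs with the pattern nearest to the median pattern of the 9 mRNAs were JCAD, ARHGEF1, FBXO21, CLASP2 and SRGAP2. Likeness was the Euclidean distance over 5 values from 3 fractions, the log2(EPKM + 0.01) in each fraction and the centred log2 TPM ratio of each IP to the Input, and was 0.382 for JCAD and 0.433 for ARHGEF1. SMG6 (0.651) and SMG9 (0.718) were the members closest to this median pattern, and UPF2 (3.08) and SMG5 (2.76) were the farthest, at ranks 6009 and 5041 among the 9607 PCGs. The other ranks were 19 for SMG6, 31 for SMG9, 354 for UPF1, 725 for UPF3A, 1322 for SMG1, 2317 for UPF3B and 4167 for SMG8. Since the median pattern was made from the 9 mRNAs themselves, their closeness to it is partly built in.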

How the data were processed

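RNA from the Input, PABPN IP and PABPC IP of 17 samples (9 RPS2-STAMP, 8 Control-STAMP) was sequenced by the authors after ribosomal RNA depletion. Per the study's methods and the submitters' processing notes, reads were aligned to hg38 with STAR and counted with featureCounts 2.0.2. The deposited signal is normalized EPKM, from edits with a confidence score of at least 0.5, after the authors subtracted editing of the control condition. No value was below 0. The deposited TPM, entered as a score because each value is repeated on 3 rows, is the authors' average per fraction of exonic plus intronic TPM on a custom annotation derived from GENCODE release 34. Which samples entered each average, how replicates were combined and which transcript length entered EPKM are not given in the sources used here. Read and edit counts behind each value are unknown, so no interval or detection limit was computed.

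From these values, log2 ratios (pseudocount of 0.01 for EPKM, none for TPM) and ranks among the 9607 PCGs that reached 5 TPM in each IP were computed, with ties given their middle rank. TPM ratios were centred on the PCG median, as planned because TPM totals differ between fractions. TPM summed to 854272 for the Input, 995724 with PABPC and 975719 with PABPN. The log2 medians subtracted were 0.99 for PABPC IP over Input and 1.14 for PABPN IP over Input. For PABPC IP over PABPN IP the median was -0.19, although the total was higher with PABPC. Centred log2 ratios were counted from 0.5 upward and from -0.5 downward. No test was run, because each gene has 1 pooled value per fraction, and the planned use of replicates was not possible. The members, lists and rules were chosen with earlier results of these data known. Besides the 9 members, the genes named were the highest and lowest gene of each list by TPM ratio, pseudogenes, fraction and cell line markers, and the 5 nearest PCGs, and PTBP1, EIF4A3, CASC3, GAS5, ZFAS1, the readthrough gene over SMG8 and the coding-length deciles were added after the values were seen. The rule also named 1 gene that is not reported here. Positions and transcript features came from GENCODE release 44, in which 18806 of 18869 genes were found by identifier. The ratio script was tested on simulated data. Python 3.11.15, NumPy 2.4.6, pandas 2.3.3 and matplotlib 3.10.9 were used.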

Additional observations from a re-analysis of the deposited data

How the results depend on the processing

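No paired analysis was possible because each fraction has a single pooled value, and for the same reason no replicate could be left out. The count of mRNAs with higher EPKM in the PABPC IP (6 of 9) was 5 of 8 without SMG1 and 5 of 8 without SMG8, which was added after seeing the data, and 4 of 9 with a difference of at least 2-fold. The median log2 EPKM ratio of 0.69 was 0.34 with a pseudocount of 0.1, 0.77 with a pseudocount of 0.001, 0.90 as a mean and 0.54 without SMG1, above 0 in each case. All 9 mRNAs were below the PCG median TPM ratio of PABPC IP to PABPN IP, also when centred on all genes. Without centring, all 9 log2 ratios were below 0, which repeats the count of mRNAs with a higher TPM with PABPN. With a TPM minimum of 1 for the centring, 8 of 9 were below the median. Against the median of their decile of coding length, an alternative added after seeing the data, 5 of 9 were below. The median centred log2 TPM ratio of -1.06 was -1.02 with a pseudocount of 0.5 TPM, -1.02 when centred on all genes and -1.08 as a mean. The values of single mRNAs have no error estimate, and an EPKM listed at 0 may be a small difference that was set to 0, which was not tested.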
